A study of Mus musculus with 43 samples.

Results

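Proline tRNA fragments were described in the epididymis, its luminal fluid and cauda sperm of WT mice and of Rnase9-12 KO mice, which carry a deletion of a locus with 4 genes of the RNase A family. The entries were chosen by name, as every counted entry that began with tRNA-Pro- and was of fragment type 5′, 3′ or other. This gave 18 entries in each of the 3 count tables, out of 651 tRNA fragment (tRF) entries and 4890 RNAs in tissue, 645 and 3178 in fluid, and 654 and 4323 in sperm. They comprised 6 isodecoders, tRNAs that share an anticodon and differ elsewhere, with 3 fragment types each. The anticodon tRNA-Pro-AGG had 1 isodecoder (AGG-1), tRNA-Pro-CGG had 1 (CGG-1) and tRNA-Pro-TGG had 4 (TGG-1 to TGG-4).

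The mice were of the FVB strain and 8 to 12 weeks old, and the labels name no treatment of the animals. Each genotype had 3 libraries per segment in tissue and in fluid, from caput, corpus and cauda, except for KO corpus tissue with 2, and cauda sperm had 4 libraries of each genotype. RNA was treated with PNK, which removes 3′ phosphates, before library construction with ARM-seq for tissue and OTTR-seq for fluid and sperm. Each fluid and sperm library pooled the RNA of 3 mice, and the fluid had been cleared of sperm, debris and vesicles. KO mice were homozygous for the deletion, made with CRISPR-Cas9 in 1 mouse line, so that the effects of single genes of the locus cannot be told apart. For tissue, the sources used here do not state how many animals a library holds, and the labels do not say that replicates came from separate animals, so p-values measure the spread between these libraries.

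Transfer RNAs carry amino acids to the ribosome, and proline tRNAs decode the CCN codons. Ribonucleases, several of the RNase A family among them, cleave tRNAs in the anticodon loop and elsewhere, which leaves fragments with the 5′ or the 3′ end of the mature tRNA. Such fragments are abundant in mature sperm, and sperm meet fluid and vesicles rich in them while they pass from the caput through the corpus to the cauda epididymis. A tRF_5′ reached the 5′ end of the mature tRNA, a tRF_3′ its 3′ end, and a tRF_other neither. The RefSeq annotation (GRCm38.p6) listed 6 nuclear proline tRNA genes with anticodon AGG, 3 with CGG and 7 with TGG, each 72 bases long. Some lay close together. On chromosome 1, n-TPagg2 (chr1:165641634-165641705) and n-TPcgg2 (chr1:165642271-165642342) were neighbours, and on chromosome 7, n-TPtgg8 (chr7:98815415-98815486) and n-TPagg7 (chr7:98815676-98815747) were. RefSeq names these genes differently from the count tables, so no single gene was matched to an isodecoder. The paper places the locus deleted in KO mice on chromosome 14, with no other protein-coding genes in it. On that chromosome RefSeq listed n-TPagg4 (chr14:51064814-51064885) and n-TPtgg5 (chr14:51090647-51090718). The bounds of the deletion were not compared with these positions, so whether KO mice lack either gene was not tested.

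A library held 30142156 to 249732714 counts in tissue, 1948718 to 12320922 in fluid and 1134840 to 62128314 in sperm. In sperm, WT replicates 2, 3 and 4 and KO replicate 4 held 1134840 to 3618739 counts each, and the other 4 libraries 42764979 to 62128314. WT caput tissue replicate 3 and the 6 caput fluid libraries carried a section entry of cauda that disagreed with their titles and descriptions, and were grouped by title. The Rnase9-12 transcripts were not counted in these tables, so the genotype could not be checked here. All 5 microRNA genes of the miR-200 family that were checked, which mark epithelium, were above 0 in every tissue and fluid library. Summed microRNA genes of male germ cells (Mir34b, Mir34c and Mir449a) reached 15.9 to 57.1 CPM in sperm. The 5 epithelial genes summed to 5.52 to 23.3 CPM in WT sperm, with at least 4 above 0 in each library. In KO sperm they summed to 10.4 to 20.2 CPM. Their sums in tissue ran from 4.25 CPM (KO cauda) to 33.5 CPM (KO caput). The 4 smooth muscle genes summed to 4.83 to 17.5 CPM in WT sperm and 5.44 to 20.95 CPM in KO sperm. The part of these cell types in the sperm libraries was not tested.

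The proline entries were not independent measurements. In fluid, the AGG-1 and TGG-2 tRF_3′ counts differed from the CGG-1 count by less than 0.1% in every library. In tissue they lay between 98.7% and 100.9% of it. By the study's methods, tRNA counts used reads that fit 1 acceptor type and 1 anticodon, yet these entries of 3 anticodons had nearly the same counts. The anticodons could therefore not be told apart at the 3′ end, and values of these entries are given for 1 of them where they agree. Entries called together may rest on the same reads and are not separate evidence.

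The isodecoders differed elsewhere. AGG-1 tRF_other, for example, had 42.4% to 80.1% of the CGG-1 count in fluid and 71.3% to 89.1% in tissue. At the 3′ end TGG-1 stood apart. TGG-1 tRF_3′ counts were 92.6% to 99.3% of the CGG-1 count in the 17 tissue libraries and 63.8% to 95.0% in the 8 sperm libraries, but only 10.9% to 32.0% in the 18 fluid libraries, as the plot of isodecoder counts shows. Tissue and fluid did not overlap in this ratio, though the tables came from different library protocols, and tissue and protocol cannot be told apart. TGG-4 was nearly absent at the 3′ end, with at most 1 count in a library, although its tRF_5′ reached 4691 counts in tissue and 5004 in fluid. TGG-4 tRF_other lay at 13.0% to 36.2% of CGG-1 tRF_other in tissue and at no more than 1.75% in fluid. TGG-3 was near 0 throughout, and its highest value was 93 counts of tRF_3′ in a tissue library with 249732714 counts.

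**Figure D1:**
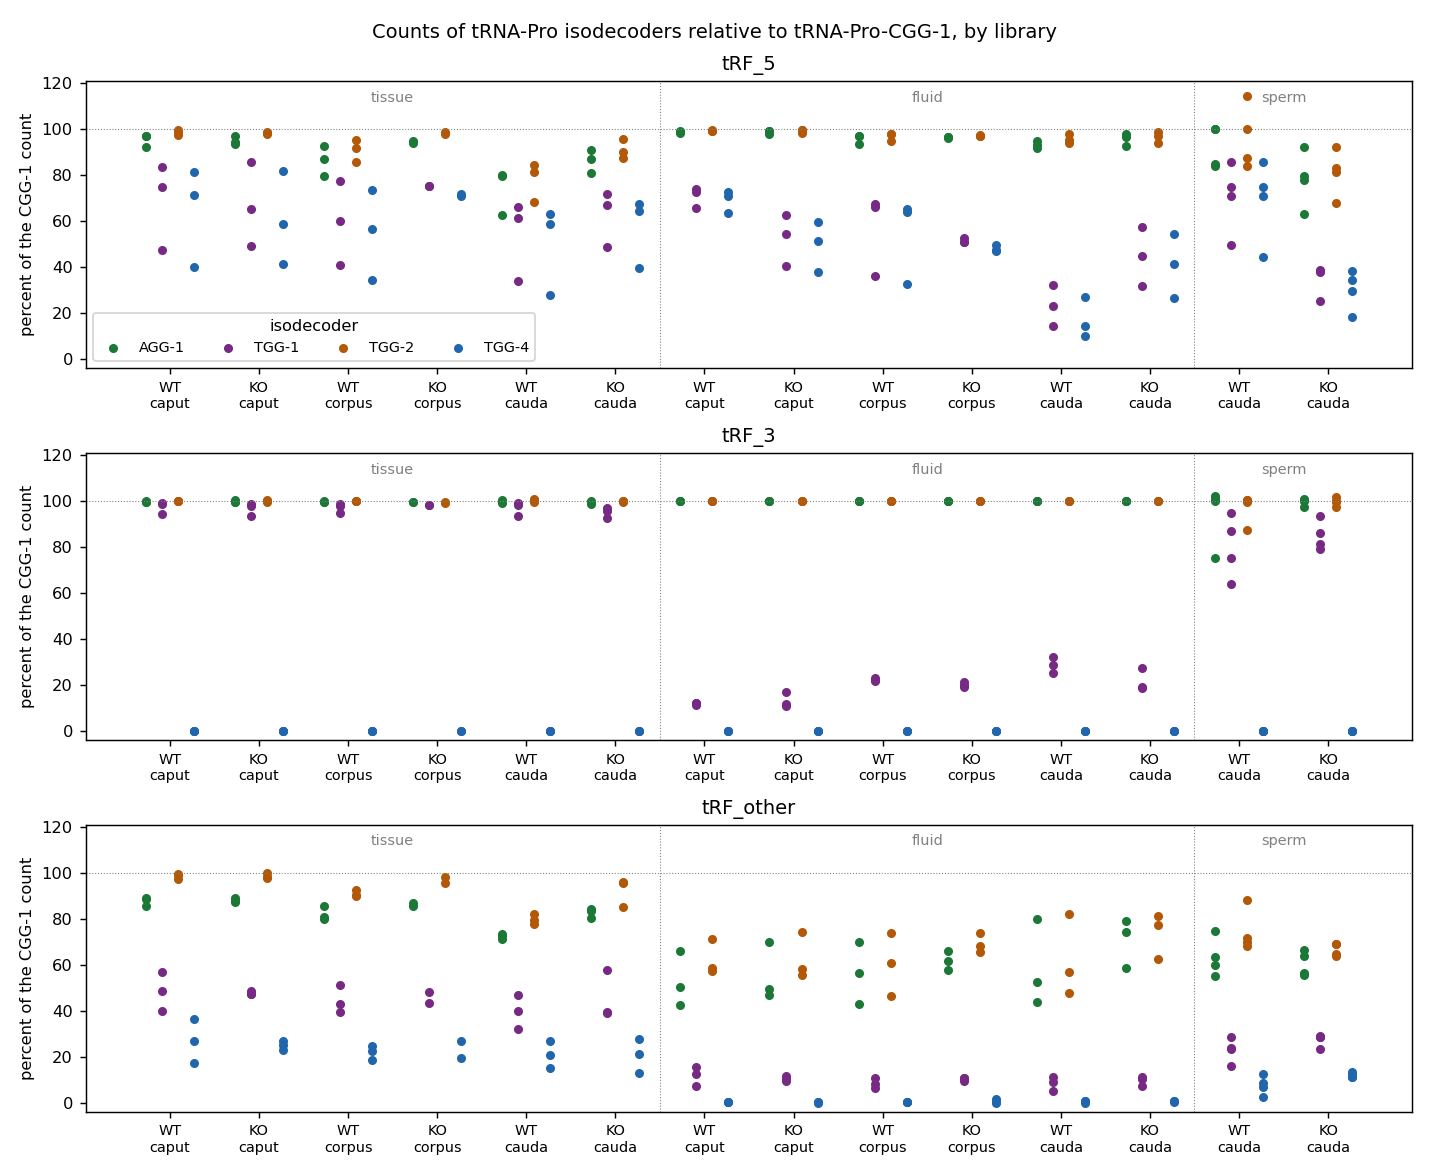
Counts of 4 tRNA-Pro isodecoders (colours) as a percent of the tRNA-Pro-CGG-1 count of the same library, for each fragment type (panels) and group (x axis), with 1 point per library. AGG-1 and TGG-2 tRF_3′ lay at 100% in fluid, whereas TGG-1 tRF_3′ lay between 10.9% and 32.0%.

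Proline fragments were mostly tRF_3′ in every tissue and fluid library, and tRF_other was the largest type in 6 of the 8 sperm libraries. In WT caput fluid, tRF_3′ made up 92.7, 89.2 and 94.7% of the proline counts, which are sums over the 18 entries. In WT corpus tissue the share was 81.3, 84 and 75.4%. In WT sperm it was 45.7, 44.8, 59.7 and 10.2%, and in KO sperm 27.3, 31.5, 31.4 and 22.3%. All sperm libraries thus lay below all tissue and fluid libraries, of which the lowest was 68.6%. The tRF_other share in sperm ran from 29.4% to 83.5%, against 0.291% to 8.10% in fluid, a table made with the same protocol.

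Most of the 18 entries could be tested. In tissue 15 passed the filter on low counts, with TGG-3 tRF_5′, TGG-3 tRF_other and TGG-4 tRF_3′ left out. In fluid and in sperm 14 passed, and all 3 TGG-3 entries and TGG-4 tRF_3′ were left out. An RNA counted as called where edgeR's quasi-likelihood test gave a Benjamini-Hochberg adjusted p under 0.05, over every RNA tested in the table, together with a log2 fold change beyond 1 in size. Levels of proline entries below are TMM-scaled CPM, which relate a count to the library's scaled total, and fold changes carry their SE. Sums of marker genes, above and below, are CPM of the library's total count, without TMM scaling.

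Along the WT duct, the 3 abundant 3′ fragments in fluid were roughly 4 to 5 times as abundant in the caput as further down, and were called in both segment comparisons. The caput fluid groups rest on the titles of libraries whose section entry says cauda. TGG-2 tRF_3′, the most counted proline entry of tissue and fluid, was at 18489, 13185 and 24617 CPM in WT caput fluid. It was at 4631, 3939 and 3392 CPM in WT corpus fluid and at 4090, 3123 and 7031 CPM in WT cauda fluid. Every caput library lay above every corpus and cauda library, whereas corpus and cauda overlapped. Its log2 fold change was -2.23 ± 0.40 from caput to corpus (edgeR adjusted p = 0.00125) and -1.98 ± 0.39 from caput to cauda (edgeR adjusted p = 0.00130). AGG-1 and CGG-1 tRF_3′, with nearly the same counts, gave log2 fold changes equal to 2 decimals in both.

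TGG-1 tRF_3′, the minor 3′ entry of fluid, had 2221, 1599 and 2772 CPM in WT caput fluid, 1063, 858 and 752 CPM in the corpus and 1179, 999 and 1763 CPM in the cauda. It was called lower in the corpus, with a log2 fold change of -1.30 ± 0.35 (edgeR adjusted p = 0.0129). In the cauda its range overlapped that of the caput and it was not called, at -0.74 ± 0.35 (edgeR adjusted p = 0.111). The ratio of its count to that of CGG-1 was 12.0, 12.1 and 11.3% in WT caput fluid, 22.9, 21.8 and 22.2% in the corpus and 28.8, 32.0 and 25.1% in the cauda. The 3 segments did not overlap in this ratio, and each of the comparisons with the caput gave p = 0.1 in a 2-sided exact permutation test, the smallest that 3 against 3 libraries allow (adjusted p = 0.324 over 55 share and ratio tests).

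In all, 4 of the 14 proline entries tested were called lower in WT corpus than in WT caput fluid and none higher. Of all 2023 RNAs, 9.54% were lower and 8.21% higher. The 4 were all the 3′ entries tested. Their median log2 fold change was -2.23, against -0.34 for the 176 other tRF_3′ tested and -0.23 for all RNAs. The 5 tRF_5′ had a median of -0.49 and the 5 tRF_other a median of 0.68, and none of these 10 was called. DESeq2 called 4 lower and none higher as well, with 6.19% of all RNAs lower. Its shares, here and below, are of every RNA with a count and not only of those that passed edgeR's filter. That base was 3005 RNAs in fluid, 4735 in tissue and 4101 in sperm, so the shares of the 2 tools are not on the same base.

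In WT cauda against WT caput fluid, 5 of 14 entries were called lower and none higher, with 15.4% of all RNAs lower and 9.69% higher. They were the 3 abundant 3′ entries and, at the 5′ end, TGG-1 and TGG-4. TGG-1 tRF_5′ stood at 613, 716 and 572 CPM in the caput and at 71.0, 246 and 189 CPM in the cauda. Its log2 fold change was -1.91 ± 0.46 (edgeR adjusted p = 0.00507). TGG-4 tRF_5′ stood at 593, 701 and 558 CPM in the caput and at 44.9, 206 and 130.2 CPM in the cauda, a log2 fold change of -2.28 ± 0.50 (edgeR adjusted p = 0.00271). Neither overlapped between the segments. DESeq2 called 5 entries lower, with 9.82% of all RNAs lower.

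The other 5′ entries were not called. CGG-1 tRF_5′, the most counted 5′ entry, was at 932, 965 and 785 CPM in WT caput fluid and at 310.1, 764 and 1322 CPM in WT cauda fluid. Its cauda libraries lay on both sides of the caput libraries, and the log2 fold change was -0.16 ± 0.40 (edgeR adjusted p = 0.776). As a percent of CGG-1, TGG-1 tRF_5′ was 65.8, 74.2 and 72.9 in WT caput fluid, 67.5, 36.1 and 66.0 in the corpus and 22.9, 32.2 and 14.3 in the cauda. All WT cauda libraries thus had lower ratios than all other WT fluid libraries, and this ratio was not tested.

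**Figure D2:**
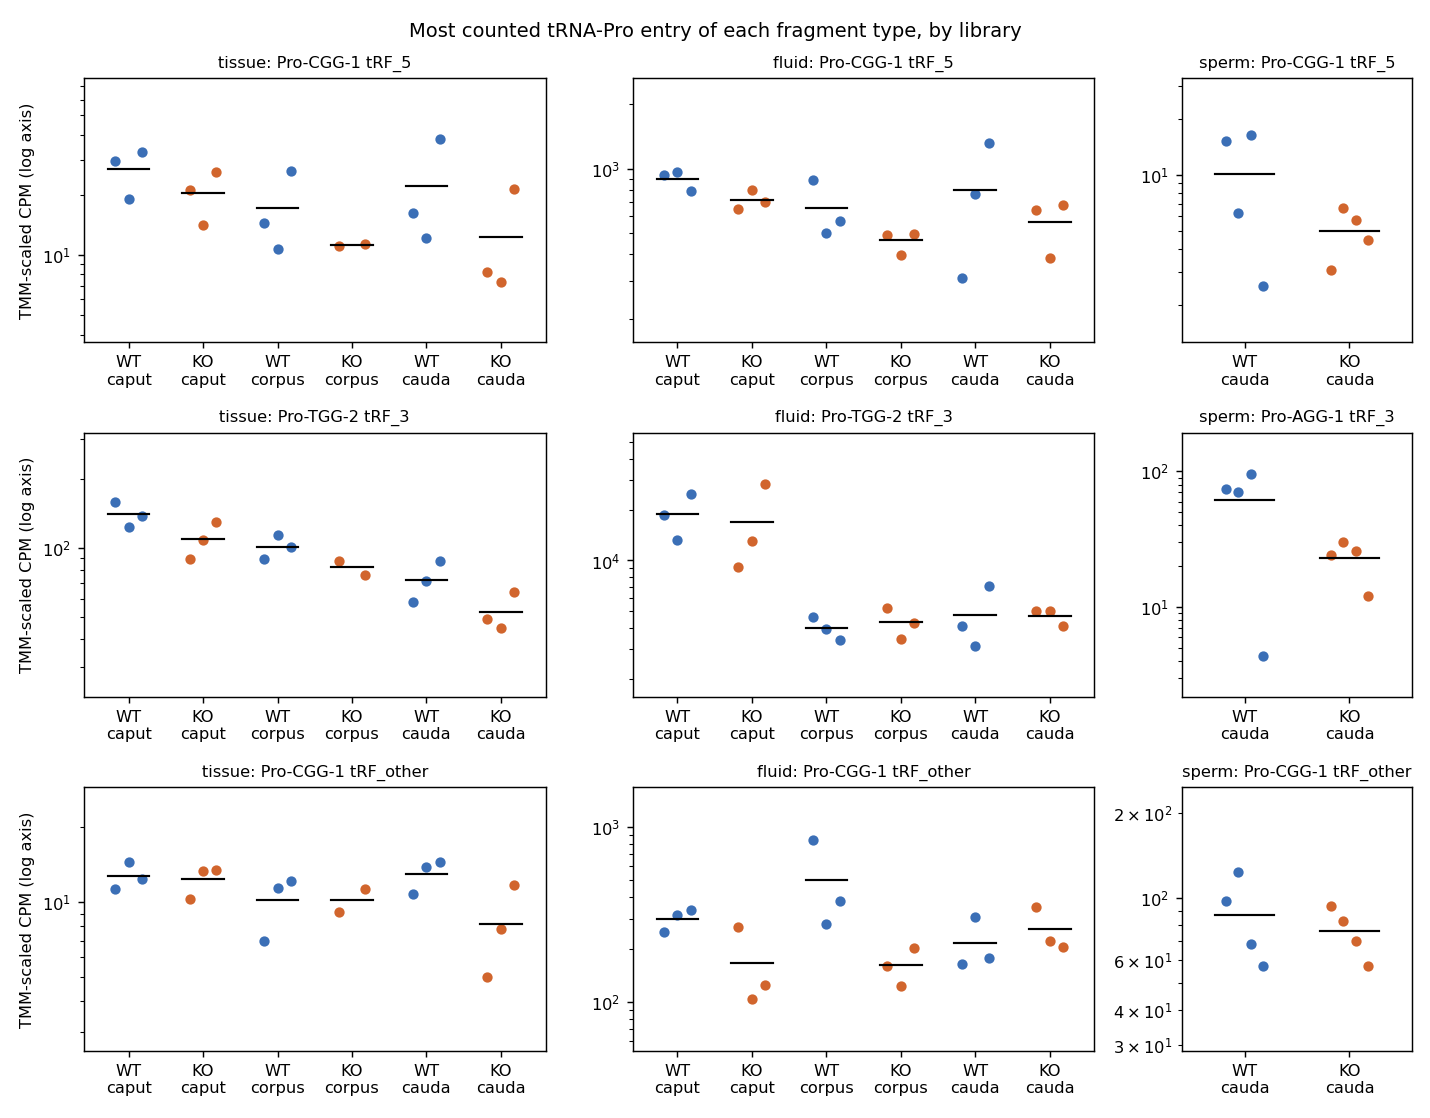
TMM-scaled CPM (y axis, log scale) of the most counted tRNA-Pro entry of each fragment type (rows) in tissue, fluid and sperm (columns), by group, with 1 point per library and a line at the mean. TGG-2 tRF_3′ was at 13185 CPM or more in the 3 WT caput fluid libraries and at 7031 CPM or less in the 6 WT libraries of corpus and cauda fluid.

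Within the tRF counts, where no scaling between libraries enters, the caput fluid also stood apart. Proline entries made up 7.31, 5.69 and 8.59% of all tRF counts in WT caput fluid, 2.42, 2.04 and 2.35% in WT corpus fluid and 1.70, 1.81 and 2.09% in WT cauda fluid. The means were 7.20% ± 1.46 (SD, n = 3), 2.27% ± 0.203 (SD, n = 3) and 1.87% ± 0.203 (SD, n = 3). The caput did not overlap with either segment, at p = 0.1 in a 2-sided exact permutation test, the smallest this design allows (adjusted p = 0.324). KO caput fluid had 4.71, 6.37 and 8.69%, and the other KO fluid libraries had 1.70% to 3.35%. With only the most counted entry of each anticodon and fragment type, proline made up 12.3, 9.62 and 14.2% in WT caput fluid. In WT corpus fluid it was then 4.17, 3.40 and 3.86%, and in WT cauda fluid 2.85, 3.02 and 3.53%. The size of the proline share, here and below, thus depended on how entries with shared reads were summed.

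Within the proline counts of WT fluid, tRF_3′ had a mean of 92.2% ± 2.76 (SD, n = 3) in the caput and 77.9% ± 5.19 (SD, n = 3) in the corpus, without overlap, and stood at 83.2% ± 7.14 (SD, n = 3) in the cauda, with overlap. The tRF_5′ share was 6.67% ± 2.51 (SD, n = 3) in the caput and 15.8% ± 3.60 (SD, n = 3) in the corpus. Both corpus comparisons reached the smallest p of 0.1 in exact permutation tests, and none of the 55 tests passed after adjustment. Marker levels also moved along the fluid. Summed germ cell microRNA genes were at 1.85 to 3.29 CPM in WT caput, 3.74 to 11.3 in corpus and 10.02 to 27.9 in cauda fluid, with all 3 genes above 0 in every library. The 4 smooth muscle genes were summed at 73.4 to 132 CPM, 98.7 to 177 and 99.3 to 292, and the 5 epithelial genes at 97.0 to 168, 28.3 to 76.5 and 49.8 to 147. For 3 microRNA genes of erythrocytes the sums were 20.2 to 23.2 CPM, 19.4 to 53.1 and 38.1 to 54.8, with at least 2 genes above 0 in each library. The part of these cell types in the result was not tested. The fluid had been cleared of sperm, debris and vesicles, so these sums are not measures of cell numbers. In bulk tissue, fewer cells of a type and less RNA per cell cannot be told apart.

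**Figure D3:**
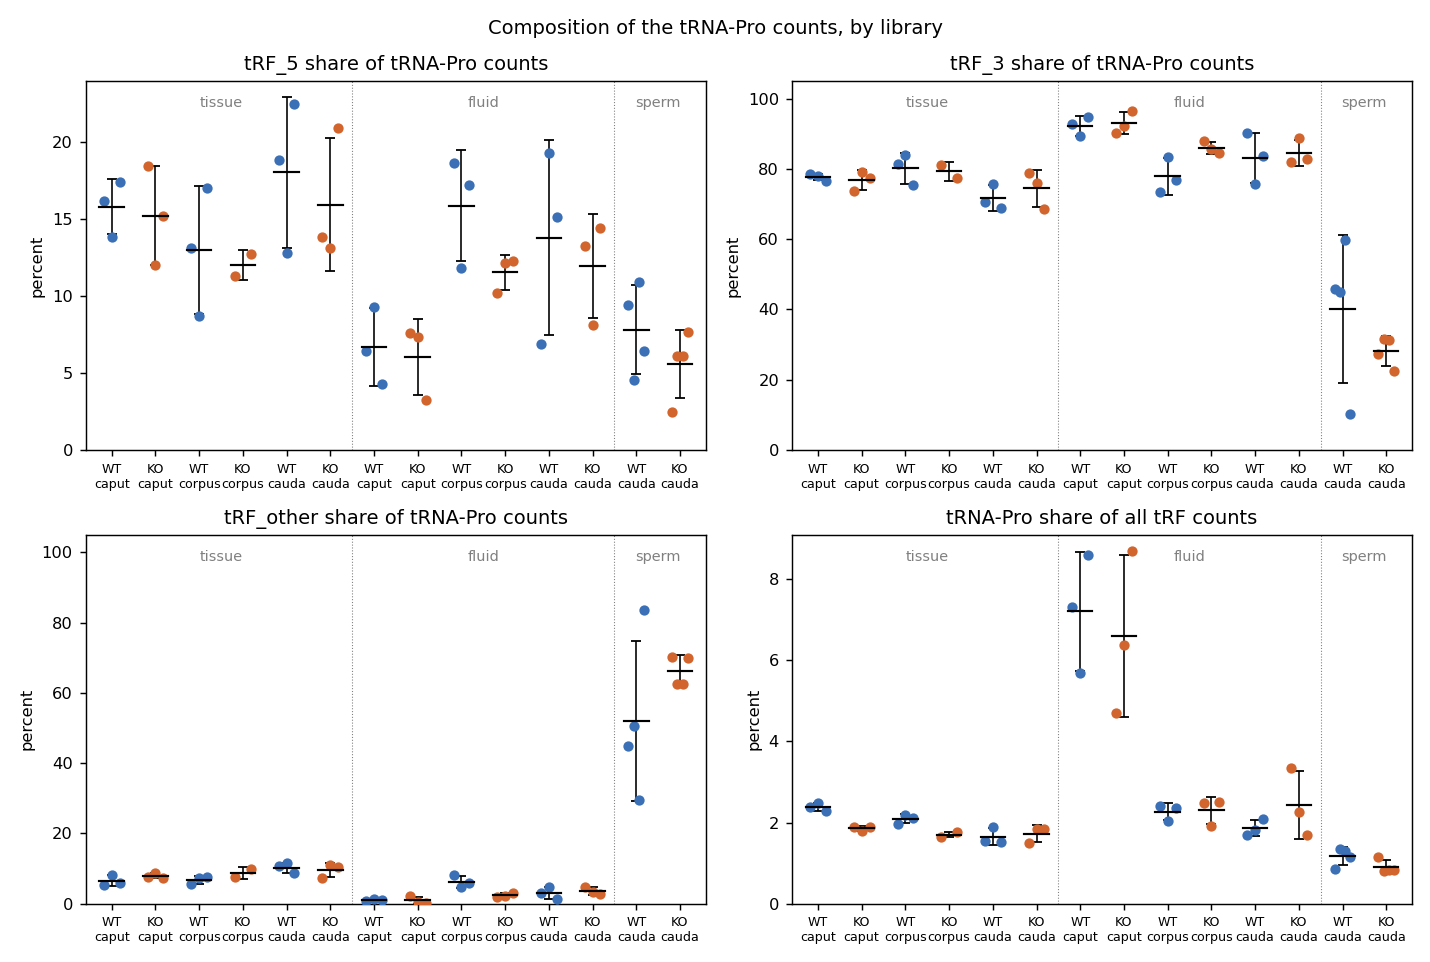
Shares of tRF_5′, tRF_3′ and tRF_other among the summed tRNA-Pro counts, and share of tRNA-Pro among all tRF counts (percent), by group in tissue, fluid and sperm. Points are libraries, lines means and bars SD; the caput fluid libraries hold 4.71% to 8.69% tRNA-Pro among tRF counts, and the other libraries 3.35% or less.

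In tissue, the 3′ fragments were also lower in the cauda than in the caput at an adjusted p under 0.05, by less than the fold threshold. TGG-2 tRF_3′ was at 159, 123 and 138 CPM in WT caput, 89.1, 114 and 101 CPM in WT corpus and 58.2, 71.4 and 87.7 CPM in WT cauda tissue. Each caput library lay above each corpus and cauda library. The log2 fold change from caput to cauda was -0.95 ± 0.26 (edgeR adjusted p = 0.0111), which passed the p but not the fold threshold. It did not pass the p with library size only (-1.36), with the 2 groups alone (-0.84), without WT caput replicate 1 (-0.75), or without WT cauda replicate 1 (-0.81) or 2 (-0.81). With the replicate number as a block it was -0.97 (edgeR adjusted p = 0.00324), again short of the fold threshold. Without WT caput replicate 3, whose section entry says cauda, it was -0.91 (edgeR adjusted p = 0.0262). From caput to corpus it was -0.47 ± 0.25 (edgeR adjusted p = 0.292).

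No proline entry of 15 was called in either direction between WT tissue segments, where 2.81% of 3488 RNAs were lower and 9.0% higher in the corpus, and 7.28% lower and 15.7% higher in the cauda. At an unadjusted p under 0.05 in edgeR, 2 of the 15 passed in the corpus and 6 in the cauda, all lower, with 23.8% and 33.9% of all RNAs in either direction. DESeq2 called 2 and 4 lower, with 3.46% and 6.31% of all RNAs. At an adjusted p alone, TGG-4 tRF_5′ passed in the corpus, at -0.98 ± 0.29. It also passed in the cauda, at -0.82 ± 0.29, with 4 of the 5 tRF_3′. At the same threshold 33 of the 591 other tRFs passed in the corpus and 90 in the cauda, where 40 of the 192 other tRF_3′ passed. All 15 log2 fold changes were below 0 in the corpus and 14 of 15 in the cauda, with medians of -0.47 and -0.72, against -0.32 and -0.40 over the 591 other tRFs and 0.08 and -0.05 over all RNAs. The summed smooth muscle genes ran from 30.6 to 53.2 CPM in WT caput tissue and from 71.0 to 235 CPM in WT cauda tissue, and their part was not tested.

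No proline fragment passed the test between KO and WT tissue. In caput tissue, TGG-2 tRF_3′ was at 89.1, 108 and 129.7 CPM in KO, of which 1 library lay within the WT range. The log2 fold change was -0.36 ± 0.25 (edgeR adjusted p = 0.9996). In corpus tissue KO had 87.9 and 76.4 CPM and a log2 fold change of -0.30 ± 0.29. In cauda tissue KO had 49.1, 44.6 and 64.4 CPM and a log2 fold change of -0.46 ± 0.25 (edgeR adjusted p = 0.418). CGG-1 tRF_5′ there had 16.2, 12.2 and 38.3 CPM in WT and 8.18, 7.30 and 21.5 CPM in KO, and CGG-1 tRF_other 10.8, 13.8 and 14.5 CPM in WT and 5.01, 7.81 and 11.7 CPM in KO. For all 3 entries, each KO library lay below the WT library of the same number, and same-numbered libraries deviated together in this comparison. With the replicate number as a block, the log2 fold changes were -0.84 for CGG-1 tRF_5′, -0.71 for CGG-1 tRF_other and -0.46 for TGG-2 tRF_3′, and none passed (edgeR adjusted p = 0.0503, 0.0728 and 0.226, against 0.451, 0.356 and 0.418 without it).

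No proline entry was called in the KO of the 3 tissue segments. Of all RNAs 0% were called in either direction in caput and corpus tissue, and 0.831% lower and 0.0287% higher in cauda tissue. At an unadjusted p under 0.05 in edgeR, 0, 0 and 1 proline entries passed in caput, corpus and cauda, with 0.975%, 8.0% and 15.1% of all RNAs, and DESeq2 called 0 in each. All 15 log2 fold changes were below 0 in caput tissue, with a median of -0.36, against 0.00 over the other tRFs and 0.04 over all RNAs. In cauda tissue all 15 were below 0 with a median of -0.54, close to the -0.56 of the other tRFs, against 0.12 over all RNAs. In corpus tissue the median was -0.12, against 0.06 over the other tRFs and -0.04 over all RNAs. The KO effect in the cauda minus that in the caput was called for none of the 15 entries, and for 0% of all RNAs (lowest edgeR adjusted p = 0.942, 0 at an unadjusted p under 0.05 with 6.05% of all RNAs, 0 called by DESeq2).

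Among all tRFs, proline took a smaller share in every KO library of caput and corpus tissue than in any WT library, which did not pass after adjustment. The share of tRF counts was 2.39, 2.48 and 2.30% in WT caput tissue and 1.89, 1.79 and 1.90% in KO. In corpus tissue it was 1.97, 2.19 and 2.11% in WT and 1.65 and 1.76% in KO. WT and KO did not overlap in either segment, at p = 0.1 in a 2-sided exact permutation test, the smallest each design allows (adjusted p = 0.324). In cauda tissue the shares were 1.55, 1.89 and 1.52% in WT and 1.49, 1.85 and 1.84% in KO, which overlapped. WT caput tissue also lay above WT corpus and WT cauda tissue in this share, with the same p of 0.1 in the exact permutation test. In corpus tissue, marker sums, which carry no TMM scaling, separated KO from WT without overlap as well. The 5 epithelial genes summed to 8.16 to 9.99 CPM in KO and 13.4 to 27.1 in WT, and the 4 smooth muscle genes to 19.1 to 28.6 CPM in KO and 37.3 to 85.5 in WT, with at least 3 above 0 in each library. In caput tissue both lists overlapped between the genotypes, at 12.2 to 33.5 CPM in KO and 11.04 to 29.0 in WT for epithelium and at 25.7 to 60.6 CPM in KO and 30.6 to 53.2 in WT for smooth muscle. The part of these cell types was not tested.

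In fluid, 1 proline entry was called between KO and WT, in the corpus. CGG-1 tRF_other was at 843, 279.8 and 380.3 CPM in WT corpus fluid and at 160.4, 123 and 203 CPM in KO. The groups did not overlap, and WT replicate 1 was more than 2 times as high as either other WT library. The log2 fold change was -1.63 ± 0.45 (edgeR adjusted p = 0.0149). Without WT replicate 1 it was -1.04 and was not called (edgeR adjusted p = 0.137), and it was also not called without KO replicate 1 or KO replicate 2, at -1.71 and -1.59.

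This 1 of 14 entries compares with 6.23% of all 2023 RNAs called lower and 13.5% called higher in KO corpus fluid. At an unadjusted p under 0.05 in edgeR, 4 of the 14 passed, all tRF_other and all lower, and they may rest on shared reads. So did 684 of all 2023 RNAs, in either direction. Among the 193 other tRF_other tested, 78 were called lower, with a median log2 fold change of -1.02, against -1.28 for the 5 proline tRF_other. The KO corpus fluid libraries were the shallowest of the table, at 1948718 to 3373869 counts, against 3989262 to 10172577 in WT, and the part of depth was not tested. Some marker sums, which carry no TMM scaling, separated the same groups without overlap. The 5 epithelial microRNA genes summed to 89.3 to 166 CPM in KO and 28.3 to 76.5 in WT corpus fluid, and the 3 germ cell genes to 12.9 to 17.96 CPM in KO, with at least 2 above 0 in each library, and 3.74 to 11.3 in WT. The 4 smooth muscle genes (145 to 358 CPM in KO) and the 3 erythrocyte genes (18.6 to 151 CPM) overlapped with WT. Their part in the result was not tested. The count depended on the scaling. With TMM factors computed without tRFs, tRNAs and rsRNAs (rRNA fragments), which moved the median of all RNAs from 0.10 to -0.78, 9 entries were called lower, with 26% of all RNAs. These were the 5 tRF_5′ and 4 tRF_other, and TGG-2 tRF_3′ turned from 0.11 ± 0.38 to -0.79. Over all RNAs, 126 were called lower and 273 higher with the TMM factors, and 526 and 144 with the alternative factors. DESeq2 called 3 entries lower, namely AGG-1, CGG-1 and TGG-2 tRF_other, with 5.42% of all RNAs.

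The 3′ fragments of KO corpus fluid, at 5221, 3428 and 4273 CPM for TGG-2, overlapped with WT. Within the proline counts, the tRF_3′ and tRF_other shares did not overlap with WT, and the tRF_5′ share did, at 11.52% ± 1.16 (SD, n = 3) in KO and 15.8% ± 3.60 (SD, n = 3) in WT (exact permutation p = 0.3, adjusted p = 0.640). KO corpus fluid had 87.8, 85.6 and 84.6% tRF_3′ and 2.01, 2.27 and 3.16% tRF_other. WT had 73.3, 83.5 and 76.8% and 8.10, 4.70 and 6.03%. The tRF_3′ and tRF_other comparisons had p = 0.1 in exact permutation tests, the smallest that 3 against 3 libraries allow (adjusted p = 0.324).

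No proline entry was called in KO caput or KO cauda fluid, nor was any RNA of the table (0%). At an unadjusted p under 0.05 in edgeR, 1 proline entry passed in caput fluid (TGG-1 tRF_other, -1.04 ± 0.48) and 0 in cauda fluid, with 10.6% and 9.29% of all RNAs, and DESeq2 called 0 in both. TGG-2 tRF_3′ of KO caput fluid was at 9200, 13103 and 28354 CPM, a spread that spanned the WT range. Its log2 fold change was -0.15 ± 0.38. In KO cauda fluid it was at 5041, 5031 and 4097 CPM, within the WT range, with a log2 fold change of -0.01 ± 0.38. The median over the proline entries was -0.32 in caput and 0.13 in cauda fluid, against -0.12 and -0.09 over the 547 other tRFs and 0.01 and 0.09 over all RNAs. Summed epithelial microRNA genes were higher in KO caput fluid, at 236 to 289 CPM, than in WT, and their part was not tested.

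The 5′ entries TGG-1 and TGG-4, low in WT cauda fluid, were at 368, 171 and 216 CPM and 349, 158 and 179 CPM in KO cauda fluid. The KO libraries overlapped with WT. In KO caput fluid they were at 264, 434 and 437 CPM and 247, 412 and 417 CPM, all below the WT caput libraries. The KO effect in cauda minus that in caput fluid was 1.32 ± 0.63 for TGG-1 and 1.63 ± 0.68 for TGG-4 on the log2 scale, which did not pass (edgeR adjusted p = 0.447 and 0.349). In this test 4 of the 14 entries had an unadjusted p under 0.05, all higher, with 10.9% of all RNAs in either direction, and neither edgeR nor DESeq2 called any, nor did edgeR call any RNA of the table (0%). For corpus minus caput, 0 proline entries were called by either tool or had an unadjusted p under 0.05 in edgeR (lowest edgeR adjusted p = 0.648). Of all RNAs, 0.148% were called lower and 1.68% higher, and 12.9% had an unadjusted p under 0.05.

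**Figure D4:**
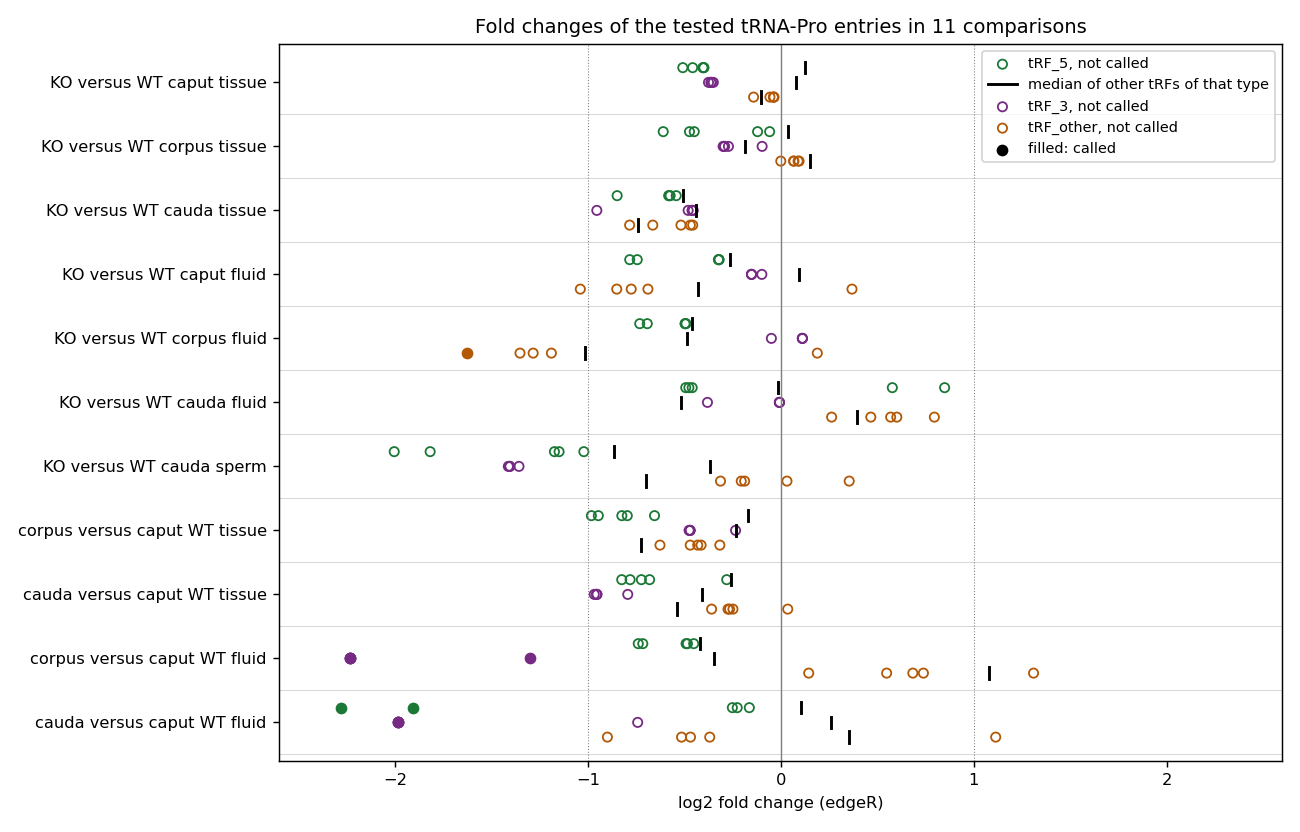
Log2 fold changes (x axis) of the tested tRNA-Pro entries in 11 comparisons (rows), by fragment type. Filled points were called, open points were not, and black bars are the medians of the other tRFs of the same type; TGG-2 tRF_3′ lay at -2.23 and -1.98 in the WT fluid comparisons.

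In cauda sperm, no proline fragment was called, and the 3′ fragments were less abundant in each KO library than in 3 of the 4 WT libraries. AGG-1 tRF_3′, the most counted 3′ entry of sperm, was at 74.6, 71.0, 96.2 and 4.34 CPM in WT and at 24.1, 30.2, 25.7 and 12.0 CPM in KO. WT replicate 4, with 12 counts of this entry, lay below all KO libraries, and the other 3 WT libraries above them. The log2 fold change was -1.41 ± 0.69 (edgeR adjusted p = 0.316). Without WT replicate 4 it was -1.72 ± 0.40 (edgeR adjusted p = 0.0126).

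At the 5′ end, TGG-1 had 480, 12, 22 and 6 counts in WT and 22, 120, 147 and 5 in KO, or 7.51, 4.68, 11.6 and 2.17 CPM and 0.780, 2.52, 2.21 and 1.72 CPM. Its log2 fold change was -1.82 ± 0.55 (edgeR adjusted p = 0.162), and that of TGG-4 tRF_5′ was -2.0 ± 0.57 (edgeR adjusted p = 0.150). As a percent of CGG-1 tRF_5′, TGG-1 tRF_5′ was 49.4, 75, 71.0 and 85.7 in WT and 25.3, 38.0, 38.7 and 38.5 in KO. The groups did not overlap in this ratio, which rests on 7 to 971 counts of CGG-1 and was not tested. CGG-1 tRF_other, the main proline entry of sperm, was at 97.7, 123, 68.7 and 57.1 CPM in WT and 93.4, 82.9, 70.4 and 57.3 CPM in KO, which overlapped, at a log2 fold change of -0.19 ± 0.41.

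Of the 14 proline entries tested in sperm, edgeR called 0 and had 2 at an unadjusted p under 0.05, both lower. Of all 2480 RNAs 0% were called and 17.5% had an unadjusted p under 0.05. DESeq2 called 2 lower, TGG-1 and TGG-4 tRF_5′, with 3.29% of all RNAs lower. Without WT replicate 4, edgeR called 6 lower, which were these 2 and the 4 tRF_3′ tested, with 7.30% of all 2836 RNAs then tested called lower. With only the 4 deepest libraries, 1 WT and 3 KO, it called 0, where the spread of WT was taken from KO. The median log2 fold change was -1.17 over tRF_5′, -1.41 over tRF_3′ and -0.19 over tRF_other, against -0.86, -0.37 and -0.70 over the other tRFs of those types and 0.00 over all RNAs. Proline made up 0.859, 1.35, 1.30 and 1.16% of tRF counts in WT sperm and 1.16, 0.808, 0.827 and 0.831% in KO (exact permutation p = 0.0571, adjusted p = 0.324). Summed microRNA genes of erythrocytes were at 4.41 to 9.50 CPM in WT and 1.08 to 62.4 CPM in KO sperm, with at least 2 of the 3 genes above 0 in each library, and their part was not tested.

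Among the other anticodons, the levels most like those of the summed proline fragments were found by Pearson correlation of log2 CPM over the libraries of a table, as a description. For tRF_3′ in fluid they were tRNA-Lys-TTT (r = 0.983), tRNA-Met-CAT (r = 0.939) and tRNA-Thr-TGT (r = 0.927), among 47 anticodons with a median r of 0.489 over 18 libraries. For tRF_5′ in fluid the nearest was tRNA-Leu-TAA (r = 0.795), and for tRF_other tRNA-Arg-ACG (r = 0.837). In tissue the nearest were tRNA-His-GTG for tRF_5′ (r = 0.864), tRNA-Thr-TGT for tRF_3′ (r = 0.902) and tRNA-Ala-AGC for tRF_other (r = 0.923), over 17 libraries. In sperm they were tRNA-Arg-ACG (r = 0.961), tRNA-Ser-CGA (r = 0.985) and tRNA-Arg-CCT (r = 0.984), over 8 libraries. The points share library depth and scaling, and in sperm the median r was 0.563 to 0.826.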

How the data were processed

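Small RNAs were measured in 43 libraries, 17 of tissue, 18 of fluid and 8 of sperm. The deposited values are read counts, whole numbers without normalization, which the authors made by trimming with cutadapt, mapping with bowtie2 in a modified tRAX pipeline to mm10, mature tRNAs and rRNAs, and counting per RNA. UMI-tools is also named in the submitters' processing notes. A read that matched several tRNAs equally well could count on each of them, which affects entries of near-identical tRNAs. Because no molecular tags were stated to be collapsed, the counts may include PCR copies.

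The proline entries, the marker genes and the tests were chosen with earlier results of these data known. All 18 tRNA-Pro fragment entries were described. Values per library of the most counted entry of each fragment type in each table were plotted for all groups and printed for a part of them. Those of the entries called were printed, with TGG-2 tRF_3′ standing for AGG-1 and CGG-1 tRF_3′. Entries printed besides these, such as TGG-4 tRF_5′ in tissue, were chosen after their values were seen. The anticodons most alike were the 3 with the highest Pearson correlation of log2 CPM (pseudocount 0.5).

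Each table was filtered with filterByExpr (minimum count 10, minimum total 15), scaled with TMM and fitted with all its groups in edgeR's quasi-likelihood test (R 4.3.3, edgeR 4.0.16, limma 3.58.1). Benjamini-Hochberg adjustment covered every RNA tested in a table. A call needed an adjusted p under 0.05 and a log2 fold change beyond 1 in size, and for differences of the KO effect between segments the p alone. The SE was taken from the fold change and its F value. Shares and ratios were compared by 2-sided exact permutation tests over libraries, adjusted over 55 tests. These were run in python 3.11.15 with numpy 2.4.6 and pandas 2.3.3 (figures with matplotlib 3.10.9). The scripts were tested on simulated data. Alternatives were DESeq2 1.42.0 with default settings, scaling with DESeq2's size factors, with library size only or with TMM factors computed without tRFs, tRNAs and rsRNAs, no filter, proline and other entries summed or reduced to the most counted entry by anticodon, the 2 groups alone, a replicate block and leaving out each library. No sample column was left unused, and no 2 replicates agreed within sampling noise.

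Replicate numbers in the labels name no shared animal or day. Same-numbered libraries deviated together, with every pair's correlation above 0.1, in KO versus WT cauda tissue (lowest 0.272), WT corpus versus caput tissue (lowest 0.312) and WT cauda versus caput tissue (lowest 0.306). The other comparisons did not meet this rule. Among them, KO versus WT caput tissue had a mean correlation of 0.423, with pairs from 0.0288 to 0.723.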

Additional observations from a re-analysis of the deposited data

Results flagged for a closer look

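KO sperm replicate 1 had a tRNA-Pro share of tRF counts of 1.16%, apart from the other 3 KO sperm libraries at 0.808%, 0.827% and 0.831%. The gap was beyond Dixon's 95% value for 4 libraries, which chance exceeds in about 1 of 20 groups.

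Reads of proline tRNAs were also counted outside the fragment entries, and no control without RNA was sequenced. Full-length tRNA-Pro had 2826 counts summed over the 17 tissue libraries, 42 over the 18 fluid libraries and 0 over the 8 sperm libraries. Counts on tRNA-Pro gene loci summed to 8278 in tissue, 606 in fluid and 122 over the sperm libraries. The mitochondrial proline tRNA had 952 counts in tissue, 74 in fluid and 48 in sperm. Antisense tRNA-Pro entries had 0 counts in tissue, 52 in fluid and 11 in sperm.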

How the results depend on the processing

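The lower TGG-2 tRF_3′ level in WT corpus and cauda than in caput fluid was called under each of 15 alternatives. The log2 fold change ran from -2.38 to -1.68 in the corpus and from -2.25 to -1.37 in the cauda, with a largest edgeR or DESeq2 adjusted p of 0.0195 and 0.0198. The count of proline entries called lower moved for 5 comparisons. In KO corpus fluid it was 1 and became 0 with library size only, 9 with TMM factors computed without tRFs, tRNAs and rsRNAs (non-tRF factors), and 3 with DESeq2, without a filter, with sums by anticodon, with the most counted entries and with the 2 groups alone. In sperm it was 0 and became 2 with DESeq2. In WT corpus versus caput tissue it was 0 and became 2 with DESeq2 and with its size factors. In WT cauda versus caput tissue it was 0 and became 4 with DESeq2 and its size factors and 5 with the non-tRF factors. In WT cauda versus caput fluid it was 5 and became 3 with sums and with the most counted entries, for which fewer entries were tested. The cause was not tested for the other changes.

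These log2 fold changes changed sign, most of them from values near 0. CGG-1 tRF_other in KO corpus tissue became 0.00123 with DESeq2 size factors, 0.18 with the non-tRF factors and 0.15 with the replicate block. TGG-2 tRF_3′ became 0.0628 in KO caput fluid with the most counted entries. In KO corpus fluid it became -0.79 with the non-tRF factors, -0.0673 without a filter, -0.18 with sums and -0.27 with the most counted entries. In KO cauda fluid it became 0.38 with library size only, 0.0734 without a filter, 0.0117 with the 2 groups alone and 0.0869 with the replicate block. CGG-1 tRF_other in WT cauda versus caput tissue became -0.0372 with DESeq2, -0.0385 with its size factors, -0.41 with library size only and -0.34 with the non-tRF factors. CGG-1 tRF_5′, at -0.45, became 0.11 in WT corpus versus caput fluid with the non-tRF factors. In WT cauda versus caput fluid it became 0.00052 with DESeq2 size factors, 0.00095 with DESeq2, 0.31 with the non-tRF factors, 0.0675 with sums and 0.41 with the most counted entries, and CGG-1 tRF_other, at -0.47, became 0.0784 with the most counted entries. With the most counted entries, the KO minus WT difference of the tRF_5′ share became 0.024 percentage points in caput fluid, that of tRF_3′ 0.325 in corpus tissue and that of tRNA-Pro among tRFs -0.159 in corpus fluid, and TGG-1 relative to AGG-1 tRF_3′ gave -0.430 in sperm.

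Leaving out each library in turn, entries called lower ranged from 0 to 1 in KO corpus fluid, 0 to 6 in sperm, 0 to 1 in WT corpus versus caput tissue and 0 to 4 in WT cauda versus caput tissue. The 6 of sperm were called without WT replicate 4, where 7.30% of all RNAs were called lower. For the other ranges no such share is given, and they are not read as particular to proline entries. Log2 fold changes of CGG-1 tRF_other ranged from -0.15 to 0.0696 in KO caput tissue, -0.21 to 0.14 in KO corpus tissue and -0.0599 to 0.69 in KO cauda fluid. Those of TGG-2 tRF_3′ ranged from -0.75 to 0.23 in KO caput, -0.19 to 0.22 in KO corpus and -0.13 to 0.44 in KO cauda fluid. Those of CGG-1 tRF_5′ ranged from -0.89 to 0.11 in KO cauda fluid, -0.78 to 0.13 in WT cauda versus caput tissue and -0.53 to 0.23 in WT cauda versus caput fluid. In percentage points, KO minus WT differences of the tRF_5′ share ranged from -2.19 to 1.02 in caput, -3.08 to 1.07 in corpus and -4.71 to 0.128 in cauda tissue, and from -1.83 to 0.763 in caput and -5.28 to 0.925 in cauda fluid. Those of tRF_3′ ranged from -2.02 to 0.669 in caput and -3.38 to 0.930 in corpus tissue, and from -0.958 to 2.13 in caput and -2.43 to 4.71 in cauda fluid. Those of tRF_other ranged from -1.40 to 0.479 in cauda tissue, -0.719 to 0.196 in caput and -0.296 to 1.5 in cauda fluid, and from -0.327 to 1.16 in WT corpus minus caput tissue. Those of tRNA-Pro among tRFs ranged from -1.66 to 0.332 in caput and -0.0862 to 0.219 in corpus fluid. TGG-1 relative to CGG-1 tRF_3′ ranged from -2.12 to 1.0 in KO caput tissue, -0.572 to 2.39 in KO caput fluid, -0.707 to 9.71 in KO sperm, -1.81 to 0.830 in WT corpus minus caput tissue and -1.82 to 1.45 in WT cauda minus caput tissue.

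With the replicate block, 1 proline entry was called lower in KO corpus fluid (CGG-1 tRF_other, -1.53), 4 in WT corpus and 5 in WT cauda versus caput fluid, and the block moved no count of calls. Every library correlated best with its own number in WT corpus versus caput fluid, a hint from the data only. Besides the settings that leave out a library, 231 counts of calls stayed within 1.5 times the reported count and 15 did not. Proline counts were lowest in sperm, where the 4 shallow libraries held 532 to 1592 proline counts.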

Other observations

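Counts on tRNA gene loci were even numbers in every one of the 5746 values of tissue, 4230 of fluid and 1696 of sperm, zeros included.

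TGG-1 tRF_5′ as a percent of CGG-1 tRF_5′ was lowest in replicate 3 in each of the 5 tissue groups that had one, at 47.3, 49.3, 40.7, 33.9 and 48.9, while the tissue median was 66.3.

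Full-length tRNA-Pro, relative to 1000 tRNA-Pro fragment counts, had a mean of 2.11 in WT caput tissue and 3.61 in WT cauda tissue, and of 8.00 ± 5.02 (SD, n = 3) in KO cauda tissue. The libraries ran from 3.26 to 13.3 in KO cauda and from 3.01 to 4.19 in WT cauda tissue, which overlapped. They held 28 to 85 full-length counts in KO cauda and 30 to 418 in WT cauda tissue. These ratios were not tested.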
